A study of Mus musculus with 36 samples.

Results

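The data concern mouse cells on their way from fibroblast to induced pluripotent stem cell that had been sorted for surface CDH1 and then kept with or without an inhibitor of the histone methyltransferase DOT1L. The members are the 4 libraries titled as CDH1-positive sort with inhibitor or with control, 2 of each, out of 36 libraries in the series. The series falls into 18 groups of 2 libraries and covers unsorted cells during reprogramming, sorted cells, cells given a Cdh1 virus, and embryonic stem cells (ESCs). All 4 sorted groups used here, CDH1-positive (CDH1+) and CDH1-negative (CDH1-), came from embryonic day 13.5 mouse embryonic fibroblasts (MEFs), homozygous for an Oct4, Klf4, Sox2 and c-Myc cassette at Col1a1 and heterozygous for the reverse tetracycline transactivator at Rosa26. Every culture received doxycycline for 5.5 days, which switches the cassette on, and was sorted by flow cytometry at day 3.5. From day 3.5 to day 5.5 the inhibitor groups received SGC0946, and the control groups received the solvent DMSO. Irradiated MEFs served as feeders for reprogramming cells, and the labels do not say whether feeders were under the cells after the sort or in the RNA. The labels do not tell whether the replicates of a group were separate cultures, and each p-value reflects the spread between these libraries alone, which may be technical.

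DOT1L methylates lysine 79 of histone H3 inside the bodies of transcribed genes, and SGC0946 occupies the site where DOT1L binds its methyl donor. Inhibiting DOT1L is known to raise the yield of induced pluripotent stem cells from fibroblasts. During reprogramming, fibroblasts pass through a mesenchymal-to-epithelial transition in which they gain cell junctions, and CDH1 (E-cadherin) is the adhesion protein that marks it before the pluripotency network is active.

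The 4 CDH1+ libraries held between 37.9 and 43.1 M (mega) expected counts, and all 8 sorted libraries between 34.9 and 43.1 M. Of the 20325 genes in the deposited files, 13968 passed the filter on low counts. Levels are given as CPM, that is edgeR's counts per M (mega) of the TMM-scaled library total, and do not compare genes of unlike length. A gene was called when its Benjamini-Hochberg adjusted p in edgeR's quasi-likelihood test was under 0.05, and every difference is a log2 fold change with its standard error (SE).

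The sort label was checked on the controls. Cdh1 stood at 46.6 and 46 CPM in the CDH1+ controls and at 7.27 and 7.24 CPM in the CDH1- controls, with no overlap. Between the controls of the 2 gates, 12.8% of all genes tested were called higher in CDH1+ cells and 13.8% lower, together 26.6%. Of 25 tested genes for epithelial junctions and keratins, 20 were called higher in the CDH1+ controls and 0 lower. Fibroblast RNA was abundant in both gates: the 23 tested fibroblast genes summed to 22600 and 22700 CPM in the CDH1+ controls against 21300 and 21900 CPM in the CDH1- controls. Col1a1, a collagen chain whose locus also holds the cassette, stood at 2220 and 2210 CPM in the CDH1+ controls and at 2020 and 2210 CPM in the CDH1- controls. Macrophage RNA also followed the gate. All 12 tested macrophage and leukocyte markers were called higher in the CDH1+ controls, and their summed level was 105 and 104 CPM there against 13.5 and 13.6 CPM in the CDH1- controls. The defining markers Csf1r, Emr1 (F4/80) and Ptprc (CD45) were all detected in the CDH1+ libraries, and Aif1 had too few counts to be tested. With the deposited TPM values the gate comparison gave 2019 genes higher and 860 lower, where the counts gave 1793 higher and 1924 lower.

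The inhibitor changed many genes of CDH1+ cells by small amounts and a few by 2-fold or more. Of the 13968 genes tested, 1163 (8.33%) were higher and 1468 (10.5%) lower with SGC0946, together 18.8%. Among the called genes 129 rose at least 2-fold and 16 fell at least 2-fold. The genes that rose came from lower levels: their median in the CDH1+ controls was 11.7 CPM, against 67.7 CPM for those that fell and 24.2 CPM for all genes tested. Of the 129 genes that rose at least 2-fold, 107 stood below 1 CPM in the controls. The median size of the change was 0.33 for the genes that rose and 0.18 for those that fell, and the median over all genes was 0.00. The deposited TPM values gave 1067 genes higher and 798 lower in limma, a fit in which the unit, the tool and the scaling differ together, and DESeq2 called 553 higher and 907 lower. Leaving out CDH1+ control replicate 1 lowered the count from 2631 to 1674. Of all genes tested 7978 had 2 inhibitor libraries that did not overlap the 2 controls, among them 1162 of the genes called higher and 1466 of those called lower, so a lack of overlap does not set a called gene apart, and the genes named by size were chosen with it.

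**Figure D1:**
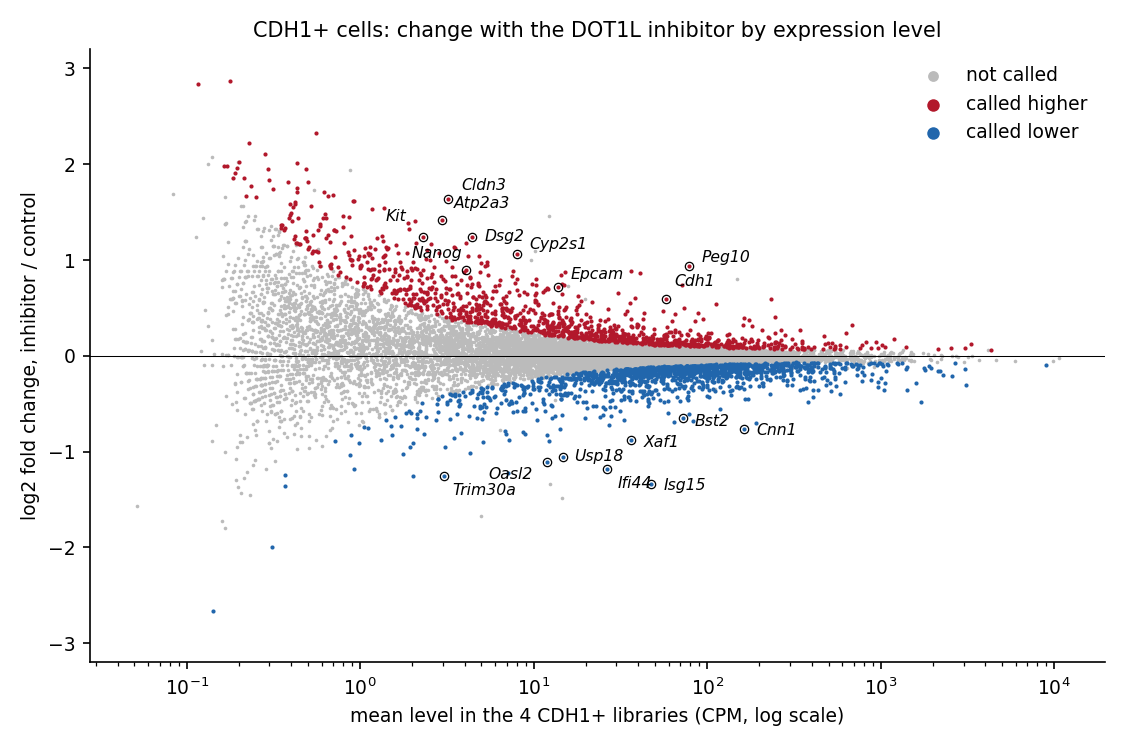
Each point is 1 of the 13968 genes tested, with its mean level in the 4 CDH1+ libraries in CPM on a log axis across and its log2 fold change with the inhibitor upward; red and blue mark the 1163 genes called higher and the 1468 called lower. The largest increases lie at low levels, as for Cldn3 at 1.64, while Isg15, at -1.34, stands apart among genes of higher level.

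Dot1l itself, the target of the compound, measured 74.3 and 76 CPM in the CDH1+ controls and 81.4 and 78.1 CPM with the inhibitor. Its change of 0.08 ± 0.04 was not called (adjusted p = 0.104). SGC0946 acts on the enzyme, so the level of this RNA does not check the treatment. Among 16 genes for DOT1L partners and transcription elongation factors 0 rose and 2 fell, where 8.33% of all genes tested rose and 10.5% fell. The 2 that fell were Aff1, a scaffold of the super elongation complex, by 0.11 ± 0.04 on the log2 scale, and the elongation factor Ell2 by 0.12 ± 0.04. Neither was called under DESeq2, on log2(TPM + 1), or without either CDH1+ control replicate or CDH1+ inhibitor replicate 2.

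All 4 reprogramming factors fell with the inhibitor. Pou5f1, the gene for Oct4, stood at 143 and 141 CPM in the controls and at 124 and 123 CPM with the inhibitor, a change of -0.20 ± 0.03 (adjusted p = 3.27e-07). Sox2 went from 115 and 106 CPM to 92.4 and 95.4 CPM, a change of -0.23 ± 0.04 (adjusted p = 1.17e-06). Klf4 fell by 0.14 ± 0.03 and Myc by 0.11 ± 0.03, and Klf4 lost the call on log2(TPM + 1), where its adjusted p was 0.0566. The counts of these genes cannot be divided between the cassette and the cells' own copies.

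Epithelial genes rose. Of 25 tested genes for epithelial junctions and keratins, 14 were called higher and 1 lower, against 8.33% and 10.5% of all genes tested. Their median change was 0.45, against 0.00 over all genes tested. Cldn3 encodes claudin-3, a strand protein of tight junctions, and it had the largest increase among the genes named by size. It stood at 1.76 and 1.37 CPM in the CDH1+ controls and at 4.92 and 4.86 CPM with the inhibitor. The change was 1.64 ± 0.16 (adjusted p = 4.02e-15). The sequence around its start site is shown because of the short E-box, the letters CACCTG, which repressors of the epithelial state such as ZEB1 and SNAI1 are known to bind. In the RefSeq window of GRCm38.p6 from 250 bases before to 50 bases after the start, on the plus strand of chromosome 5 at chr5:134985964-134986263, capitals mark 1 match, which lies on the opposite strand and begins 31 bases past the start.
Cldn3: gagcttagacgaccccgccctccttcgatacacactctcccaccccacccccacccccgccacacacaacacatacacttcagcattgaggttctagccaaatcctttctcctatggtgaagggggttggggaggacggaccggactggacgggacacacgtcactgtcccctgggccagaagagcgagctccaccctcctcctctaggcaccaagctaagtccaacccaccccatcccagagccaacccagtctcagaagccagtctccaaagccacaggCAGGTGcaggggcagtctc
With both strands searched, 20.2% of all 32851 promoter windows of this length held CACCTG, and 21.1% of the 9898 tested genes with a window did. Of 18 epithelial genes with a window, 16 held it, the exceptions being Cgn and Jup, while 1 of 12 genes for mesenchymal regulators did. Among genes called higher by 0.5 or more the share was 33.2%, that is 83 of 250, and among genes called lower by 0.5 or more it was 29.6%, that is 21 of 71. Over all called genes the share was 26.0% for those higher and 20.4% for those lower. A match is a run of letters and not a measured binding site.

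Cdh1, the sorted marker, was also higher with the inhibitor. It measured 46.6 and 46 CPM in the CDH1+ controls and 69 and 70.8 CPM in the CDH1+ inhibitor libraries, a change of 0.59 ± 0.04 (adjusted p = 3.84e-22). Dsg2, a cadherin of desmosomes, went from 2.69 and 2.54 CPM to 5.97 and 6.35 CPM. Its change was 1.24 ± 0.14 (adjusted p = 5.18e-12). Epcam, an adhesion molecule of epithelial and pluripotent cells, rose from 10.4 and 10.5 CPM to 17.9 and 16.5 CPM, a change of 0.72 ± 0.09. Krt19, a keratin of simple epithelia, rose from 143 and 137 CPM to 185 and 183 CPM. The keratin pair Krt8 and Krt18 rose by 0.22 ± 0.04 and 0.54 ± 0.09, and the tight junction genes Cldn4 and Cgn by 0.73 ± 0.12 and 0.68 ± 0.12. Pkp2, which encodes a plaque protein of desmosomes, went the other way, from 112 and 116 CPM to 87.2 and 84.1 CPM (-0.42 ± 0.04, adjusted p = 1.15e-18). Beside the list counts that follow, 8.33% of all genes tested rose and 10.5% fell. Of 10 genes for laminins and epithelial integrins 6 rose and 1 fell, and 3 were called higher without CDH1+ control replicate 1. Itga3, a laminin receptor subunit, rose from 55.5 and 55.5 CPM to 75.7 and 75 CPM, whereas Itgb4, the integrin subunit of hemidesmosomes, fell from 458 and 459 CPM to 358 and 360 CPM. Among 13 genes for the matriptase system and epithelial regulators 4 rose and 0 fell, including the transcription factors Ehf (0.56 ± 0.09) and Elf3 (0.98 ± 0.22) and the splicing regulator Esrp2 (0.58 ± 0.16). Without CDH1+ control replicate 1, Elf3 and Esrp2 were no longer called and 1 gene of this list was higher, against 2 under DESeq2.

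**Figure D2:**
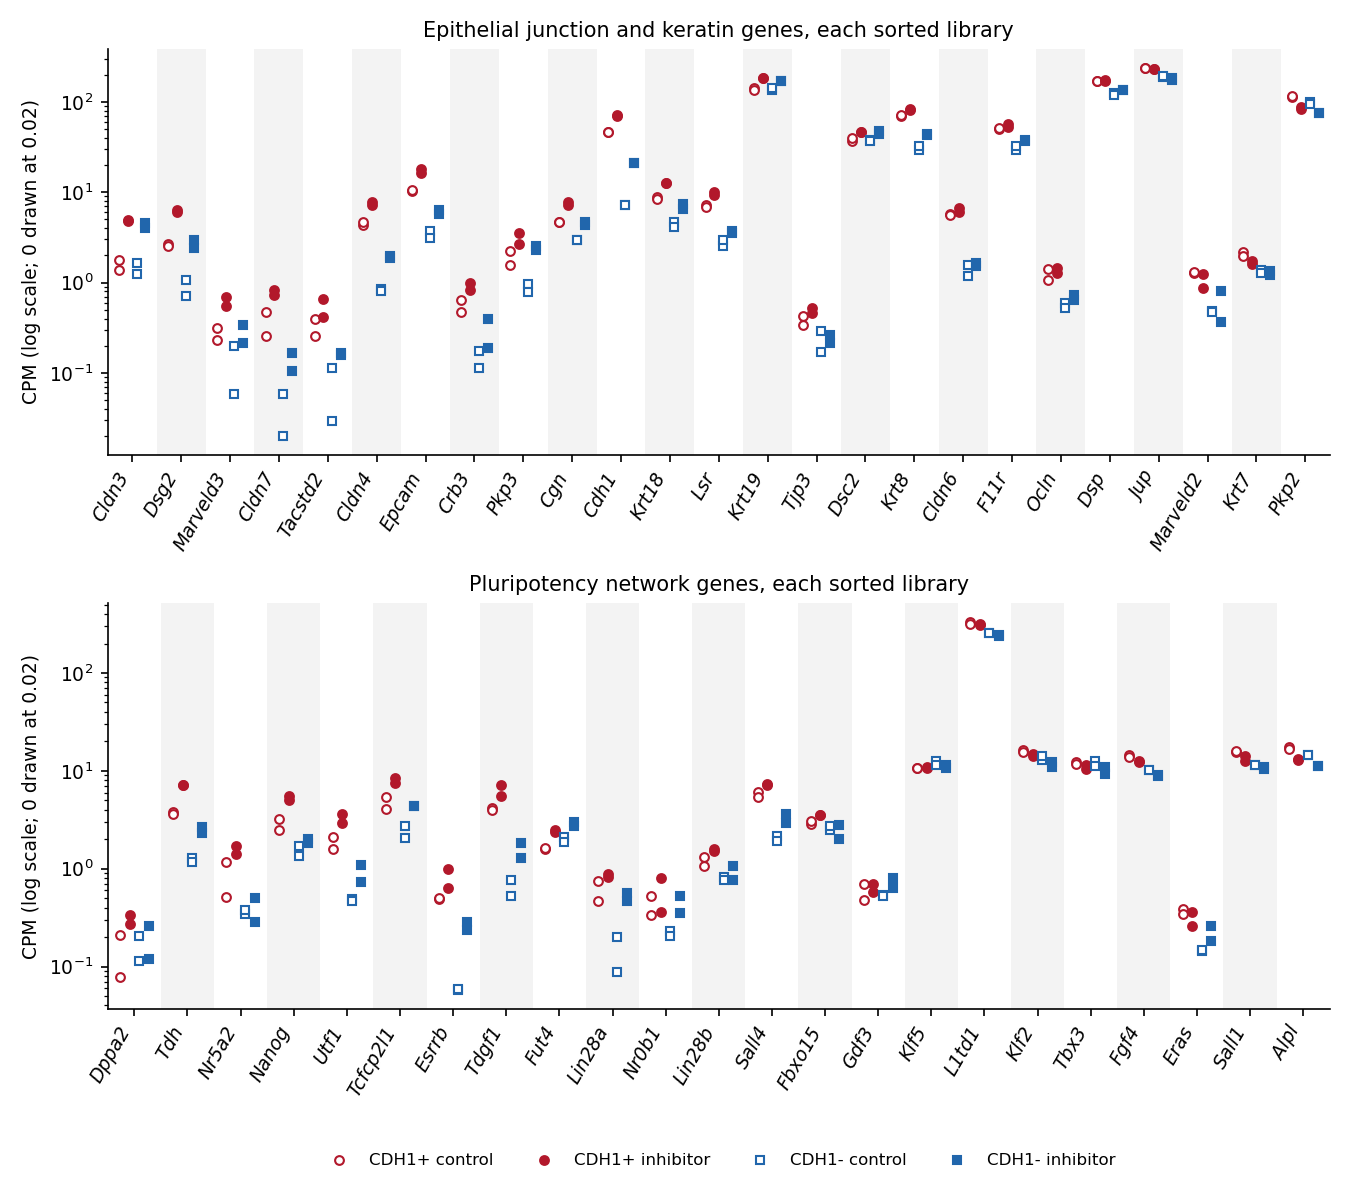
The upper panel shows 25 epithelial genes and the lower panel 23 genes of the pluripotency network, ordered by their change in CDH1+ cells, with the level in each of the 8 sorted libraries in CPM on a log axis; open symbols are controls, filled symbols inhibitor, red circles CDH1+ and blue squares CDH1-, and the single value of 0 is drawn at 0.02 CPM. For Cldn3, Dsg2, Epcam and Cdh1 both filled red points lie above both open red points, as holds for 1162 of the 1163 genes called higher.

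Most of the pluripotency genes that were called rose, from low levels, where 8.33% of all genes tested rose and 10.5% fell. Of 24 tested members of the pluripotency network 9 were higher and 2 lower, with a median of 0.42, and 5 were called higher without CDH1+ inhibitor replicate 2. Nanog, a core transcription factor of that network, stood at 3.23 and 2.46 CPM in the CDH1+ controls and at 5.52 and 5.07 CPM with the inhibitor. Its change was 0.89 ± 0.15 (adjusted p = 5.16e-07). Tdh, threonine dehydrogenase, an enzyme that mouse ESCs depend on, went from 3.77 and 3.59 CPM to 7.14 and 7.1 CPM (0.95 ± 0.13, adjusted p = 1.7e-09). Tcfcp2l1, a transcription factor of naive pluripotency, went from 5.35 and 4.12 CPM to 7.45 and 8.38 CPM (0.74 ± 0.12). Utf1, Tdgf1, Nr5a2, Fut4 and Sall4 were also called higher. Alpl, the alkaline phosphatase used as an early stain for reprogramming, fell from 17.5 and 16.8 CPM to 13 and 13.1 CPM (-0.39 ± 0.08), and Sall1 fell by 0.24 ± 0.08. Esrrb, another naive factor, measured 0.491 and 0.502 CPM in the controls and 0.99 and 0.639 CPM with the inhibitor, and its difference of 0.70 ± 0.35 was not called.

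The increases reached beyond that list into genes that ESCs use. Genes were classed with libraries outside the sort, as at least 4-fold higher or lower in ESCs than in MEFs given an empty virus, a comparison in which 44.5% of 15044 genes were called higher and 44.1% lower, together 88.7%. Of the 1678 ESC-high genes tested in CDH1+ cells 291 (17.3%) rose and 79 (4.71%) fell with the inhibitor, with a median of 0.07. Of the 2525 MEF-high genes 279 (11%) rose and 443 (17.5%) fell, with a median of -0.01. For comparison, 8.33% of all genes tested rose and 10.5% fell. CDH1- cells gave similar shares: 247 ESC-high genes (14.7%) rose and 80 (4.77%) fell, and 290 MEF-high genes (11.5%) rose and 441 (17.5%) fell. Among the 129 genes that rose at least 2-fold in CDH1+ cells, 61 (47.3%) were ESC-high and 13 (10.1%) MEF-high, against 12% and 18.1% of all genes tested. Of these 129 genes 82.9% stood below 1 CPM in the CDH1+ controls, against 12% of all genes tested. The shares were not matched for level. In these bulk samples more cells of a type and more RNA per cell cannot be told apart.

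The other genes with the largest increases were of mixed function. Atp2a3, a calcium pump of the endoplasmic reticulum, went from 1.5 and 1.72 CPM to 4.04 and 4.52 CPM, a change of 1.41 ± 0.16 (adjusted p = 6.52e-12). Kit, the receptor for stem cell factor, went from 1.32 and 1.43 CPM to 3.13 and 3.33 CPM, a change of 1.24 ± 0.18. Cyp2s1, a cytochrome P450, went from 4.62 and 5.65 CPM to 10.7 and 10.9 CPM, a change of 1.07 ± 0.11. The rest were Sprr2b, a protein of the cornified envelope with close paralogs, the BMP and Wnt antagonist Sostdc1, the angiogenesis inhibitor Vash1, the steroid-synthesis enzyme Cyp11a1, the homeobox gene Gsx1, the ribonuclease P subunit Rpp25 and Rragd, a GTPase of amino acid sensing. Their changes lay between 1.04 and 1.18, and Sprr2b lost the call on log2(TPM + 1).

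The largest decreases were of another kind. Of the 18 tested genes of the interferon response 14 fell and 2 rose, against 10.5% and 8.33% of all genes tested. Their median was -0.60, the lowest among the 38 gene lists. These genes are switched on when secreted interferons activate transcription factors such as STAT2 and IRF9, which bind the interferon-stimulated response element. Isg15, a ubiquitin-like protein that is attached to other proteins after interferon exposure, had 69.1 and 67.1 CPM in the CDH1+ controls and 25.9 and 27.9 CPM with the inhibitor. The change was -1.34 ± 0.05 (adjusted p = 7.96e-47). Bst2, or tetherin, which holds budding viruses at the cell surface, had 88.1 and 87.8 CPM in the controls and 55.6 and 56.9 CPM with the inhibitor (-0.64 ± 0.04, adjusted p = 2.04e-28). Their RefSeq promoter windows in GRCm38.p6 are shown for the response element, searched on both strands as the letters GAAA followed by any 2 bases and again GAAA; capitals mark the matches, which overlap one another. Both windows read along the minus strand, that of Isg15 at chr4:156200769-156201068 and that of Bst2 at chr8:71537423-71537722.
Isg15: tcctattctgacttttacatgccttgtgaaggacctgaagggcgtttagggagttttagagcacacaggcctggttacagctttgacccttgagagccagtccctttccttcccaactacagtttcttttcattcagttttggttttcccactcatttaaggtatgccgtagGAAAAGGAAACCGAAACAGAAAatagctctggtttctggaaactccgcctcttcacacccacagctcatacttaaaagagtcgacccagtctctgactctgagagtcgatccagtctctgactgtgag
Bst2: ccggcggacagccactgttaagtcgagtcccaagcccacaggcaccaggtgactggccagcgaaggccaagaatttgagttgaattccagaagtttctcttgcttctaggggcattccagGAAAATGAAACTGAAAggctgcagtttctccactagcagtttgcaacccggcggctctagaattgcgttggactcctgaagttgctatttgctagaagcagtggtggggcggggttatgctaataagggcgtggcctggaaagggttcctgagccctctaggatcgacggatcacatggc
The 3 matches of Isg15 begin 78, 72 and 66 bases before the start, and the 2 matches of Bst2 begin 130 and 124 bases before it. Of all 32851 windows 3.44% held the motif, and of the 9898 tested genes with a window 3.69% did. Among 14 interferon response genes with a window 9 held it, including Rsad2, which rose, and Ifit3, which was not called. Ifi44, Oasl2 and Xaf1, which are among the largest decreases, lacked it, as did Irf7 and Ifit2. Among genes called lower by 0.5 or more it was present in 16 of 71, or 22.5%. Among genes called higher by 0.5 or more it was present in 11 of 250, or 4.4%. Over all called genes the share was 6.02% for those lower and 3.83% for those higher. The 71 include genes of the interferon list such as Isg15 and Bst2, so their share is not separate from that of the list.

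Other interferon genes fell as well. Ifi44, an interferon-induced gene, had 35.8 and 37.9 CPM in the controls and 16.5 and 16 CPM with the inhibitor (-1.18 ± 0.06, adjusted p = 4.43e-34). Usp18, the protease that removes ISG15 and damps interferon signalling, went from 18.3 and 21.7 CPM to 9.72 and 9.5 CPM (-1.06 ± 0.08). Xaf1, a proapoptotic interferon target, went from 47.2 and 47.3 CPM to 25.8 and 25.5 CPM (-0.88 ± 0.05). Among the transcription factors of the pathway Stat2 fell by 0.58 ± 0.05 and Irf7 by 0.81 ± 0.10. Ifit3 (-0.19 ± 0.08) and Ifit2 (-0.12 ± 0.09) were not called. Rsad2, the antiviral enzyme viperin, rose from 0.775 and 0.793 CPM to 2.01 and 1.73 CPM (1.25 ± 0.24), and Mx1, an antiviral GTPase, from 0.103 and 0.317 CPM to 0.651 and 0.616 CPM (1.58 ± 0.45). Of the 12 largest decreases, Isg15, Ifi44, Usp18, Xaf1 and Oasl2 belong to the interferon list, and Rtp4 (-1.22 ± 0.11), Trim30a (-1.25 ± 0.17) and Ifi27l2a (-0.95 ± 0.16) are also known as interferon-induced genes. Apol9a and Apol9b, which are near-identical copies whose reads RSEM had to divide, fell by 0.88 ± 0.11 and 1.01 ± 0.14. The remaining ones were Myom1, a structural protein of muscle (-0.88 ± 0.09), and Mpeg1, a pore-forming protein of macrophages, which went from 6.61 and 6.61 CPM to 3.65 and 3.42 CPM (-0.90 ± 0.14).

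Macrophage markers moved in the same direction. Of the 12 tested macrophage and leukocyte markers 4 fell and 0 rose with the inhibitor, against 10.5% and 8.33% of all genes tested. All 12 estimates were below 0, and the median was -0.30. Lyz2, the lysozyme of myeloid cells, went from 32.8 and 35.2 CPM to 21.7 and 22.1 CPM (-0.63 ± 0.06, adjusted p = 4.02e-15). Emr1, C1qb (a complement subunit) and Csf1r (the receptor for the macrophage growth factor) were also called lower, while under DESeq2 only Lyz2 of this list was. Without CDH1+ control replicate 1 the count was 1, and without CDH1+ inhibitor replicate 2 it was 2. Ptprc, which all leukocytes carry, was at 1.73 and 1.61 CPM in the controls and at 1.56 and 1.6 CPM with the inhibitor, and was not called. The summed level of the list went from 105 and 104 CPM to 79.3 and 79.7 CPM, while that of the interferon list went from 475 and 476 CPM to 284 and 287 CPM. In CDH1- cells the macrophage list summed to between 12.2 and 13.6 CPM in the 4 libraries. There 12 of the 18 interferon genes were also called lower and 1 higher, against 10.8% and 7.82% of all genes tested. The part of macrophage RNA in the fall of the interferon genes was not tested in either gate.

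**Figure D3:**
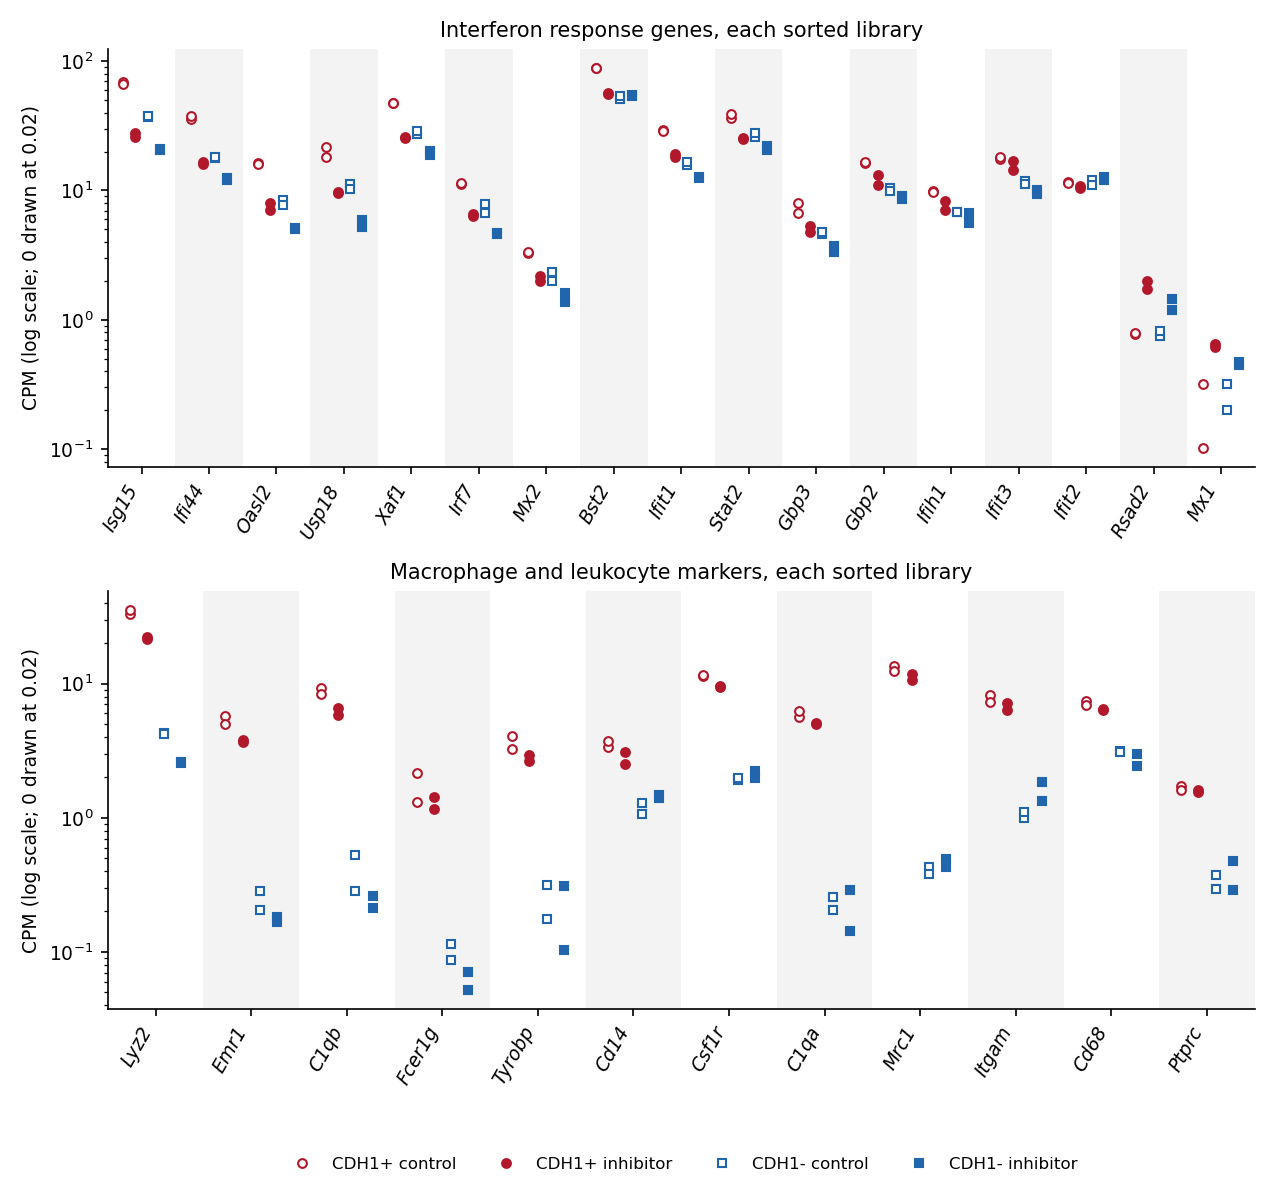
Levels of 17 interferon response genes and 12 macrophage and leukocyte markers in each of the 8 sorted libraries, in CPM on a log axis; open symbols are controls, filled symbols inhibitor, red circles CDH1+ and blue squares CDH1-. For Isg15, Ifi44 and Bst2 the open red points stand above all others, and for the macrophage markers all red points stand above the blue ones.

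Contractile genes fell almost as a whole. Of 11 tested genes for the contractile apparatus of smooth muscle and myofibroblasts, 10 were lower and 0 higher, with a median of -0.31. Beside this and the other list counts here, 10.5% of all genes tested were lower and 8.33% higher. Cnn1, or calponin, which binds actin, went from 205 and 203 CPM to 122 and 118 CPM (-0.76 ± 0.03, adjusted p = 4.2e-42). Tagln, another actin-binding protein, went from 2000 and 2000 CPM to 1420 and 1440 CPM (-0.48 ± 0.02, adjusted p = 3.79e-36). Myl9, a myosin light chain, went from 441 and 441 CPM to 315 and 318 CPM. The gap between the groups was many times the spread within them for all 3 genes. Of 9 targets of the coactivator YAP 6 fell and 1 rose: Ankrd1 fell by 0.47 ± 0.04 and Ctgf by 0.28 ± 0.02, while Cyr61 rose by 0.15 ± 0.02. Other fibroblast genes did not share one direction. In the list for fibroblast matrix and identity 7 of 23 rose and 6 fell, with Bgn, a matrix proteoglycan, at -0.20 ± 0.02 and Lox, an enzyme that crosslinks collagen, at 0.17 ± 0.02. Col1a1, at 2220 and 2210 CPM in the controls and 2200 and 2270 CPM with the inhibitor, was not called, and Thy1, a surface marker that reprogramming fibroblasts lose, fell by 0.13 ± 0.03. Of 20 mesenchymal regulators 8 fell and 3 rose, with the growth factor gene Tgfb3 (-0.28 ± 0.03) and the homeobox gene Prrx1 (-0.17 ± 0.03) among those that fell. In this list 4 were called lower without CDH1+ inhibitor replicate 2 and 3 on log2(TPM + 1), and 0 were called higher under DESeq2, without CDH1+ control replicate 2 or without CDH1+ inhibitor replicate 1. Of 10 targets of TGF-beta and BMP signalling 5 rose and 4 fell, with Id1 and Id3, which block basic helix-loop-helix factors, rising by 0.37 ± 0.04 and 0.19 ± 0.03.

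Hox genes, which record position along the body axis, are classical targets of DOT1L in leukaemia. Of 35 tested here 11 fell and 0 rose, against 10.5% and 8.33% of all genes tested, and their median was -0.21. Hoxc8 went from 22.9 and 23.8 CPM to 16.9 and 16.4 CPM (-0.49 ± 0.06, adjusted p = 7.3e-10), Hoxc6 from 14.5 and 15.8 CPM to 10.7 and 10.3 CPM (-0.52 ± 0.08) and Hoxb3 from 14.7 and 14.9 CPM to 11 and 9.77 CPM (-0.51 ± 0.08). DESeq2 called 5 Hox genes lower in place of 11, and 6 were called without CDH1+ control replicate 1 and 7 without CDH1+ inhibitor replicate 2. Imprinted genes, of which cells express the copy from 1 parent, split in both directions: of 20 tested 4 rose and 6 fell. Peg10, a retrotransposon-derived gene, went from 52.5 and 55.8 CPM to 102 and 105 CPM (0.94 ± 0.04, adjusted p = 2.14e-41). Grb10, an adaptor that restrains insulin signalling, went from 1160 and 1180 CPM to 919 and 900 CPM (-0.36 ± 0.02), and Slc38a4, an amino acid transporter, from 73.1 and 69.9 CPM to 48.5 and 46.3 CPM (-0.59 ± 0.04).

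In the Wnt pathway 8 of 17 genes rose and 3 fell, and 5 were called higher under DESeq2 or without CDH1+ control replicate 1. Axin2, a feedback inhibitor that reports active Wnt signalling, went from 1.19 and 1.08 CPM to 2.87 and 3.17 CPM (1.41 ± 0.20, adjusted p = 4e-09), and the secreted antagonist Sfrp1 rose by 0.27 ± 0.04. The receptors Fzd7 and Fzd5 fell by 0.32 ± 0.04 and 0.37 ± 0.04. Among 15 immediate early genes, which respond within minutes to growth signals, 9 fell and 1 rose. Beside this and the other list counts here, 10.5% of all genes tested fell and 8.33% rose. Egr2, a zinc finger transcription factor, went from 15.8 and 15.3 CPM to 10.3 and 9.57 CPM (-0.65 ± 0.08, adjusted p = 2.99e-10), and Nr4a1, an orphan nuclear receptor, from 177 and 171 CPM to 138 and 140 CPM (-0.33 ± 0.03). Of 20 sterol synthesis genes 8 fell and 1 rose, by at most 0.23 on the log2 scale for those that fell, with Insig1 and Idi1 among them, and 5 were called lower without CDH1+ control replicate 2 and 4 on log2(TPM + 1). Of 18 mitosis genes 8 rose and 0 fell, with a median of 0.09 and Cdc20, an activator of the anaphase complex, at 0.17 ± 0.03; 5 were called under DESeq2, without CDH1+ control replicate 1 and without CDH1+ inhibitor replicate 1. Of 18 DNA replication genes 6 were called higher and 0 lower, with the cyclin gene Ccne1 at 0.22 ± 0.04. Their median was 0.01 with 9 of the 18 estimates above 0, and 3 were called without CDH1+ control replicate 2 and 2 without CDH1+ inhibitor replicate 2.

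Genes of other lineages changed in small numbers. Each count here stands beside 8.33% of all genes tested that rose and 10.5% that fell. Of 7 tested trophoblast-associated genes 4 rose, led by Eomes, a T-box factor, from 1.01 and 1.08 CPM to 2.84 and 2.65 CPM (1.39 ± 0.22), and by Tcfap2c, an AP-2 factor, from 7.18 and 7.37 CPM to 12.1 and 12.3 CPM (0.75 ± 0.10). Of 9 neural genes 4 rose and 1 fell: the neurofilament gene Nefm rose by 0.84 ± 0.12, and Sox11 fell by 0.42 ± 0.05. Of 11 epidermal genes 4 rose and 0 fell, but DESeq2 called 0 of them, as did the fit without CDH1+ control replicate 2, and 1 was called without CDH1+ inhibitor replicate 2. Among DNA methylation and chromatin enzymes 4 of 16 rose, including Tet1, which oxidises methylcytosine (0.45 ± 0.11), and the de novo methyltransferase gene Dnmt3b (0.30 ± 0.08), and 2 were called under DESeq2, without CDH1+ control replicate 2 and without CDH1+ inhibitor replicate 1. Of the 8 endothelial markers 0 were called, and their summed level was 114 and 120 CPM in the controls and 111 and 109 CPM with the inhibitor. In oxidative phosphorylation 1 of 21 genes was called, the ATP synthase subunit Atp5a1 (0.08 ± 0.02). In glycolysis 2 of 15 rose, including the glucose transporter gene Slc2a3 (0.31 ± 0.03), where 8.33% of all genes tested rose.

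**Figure D4:**
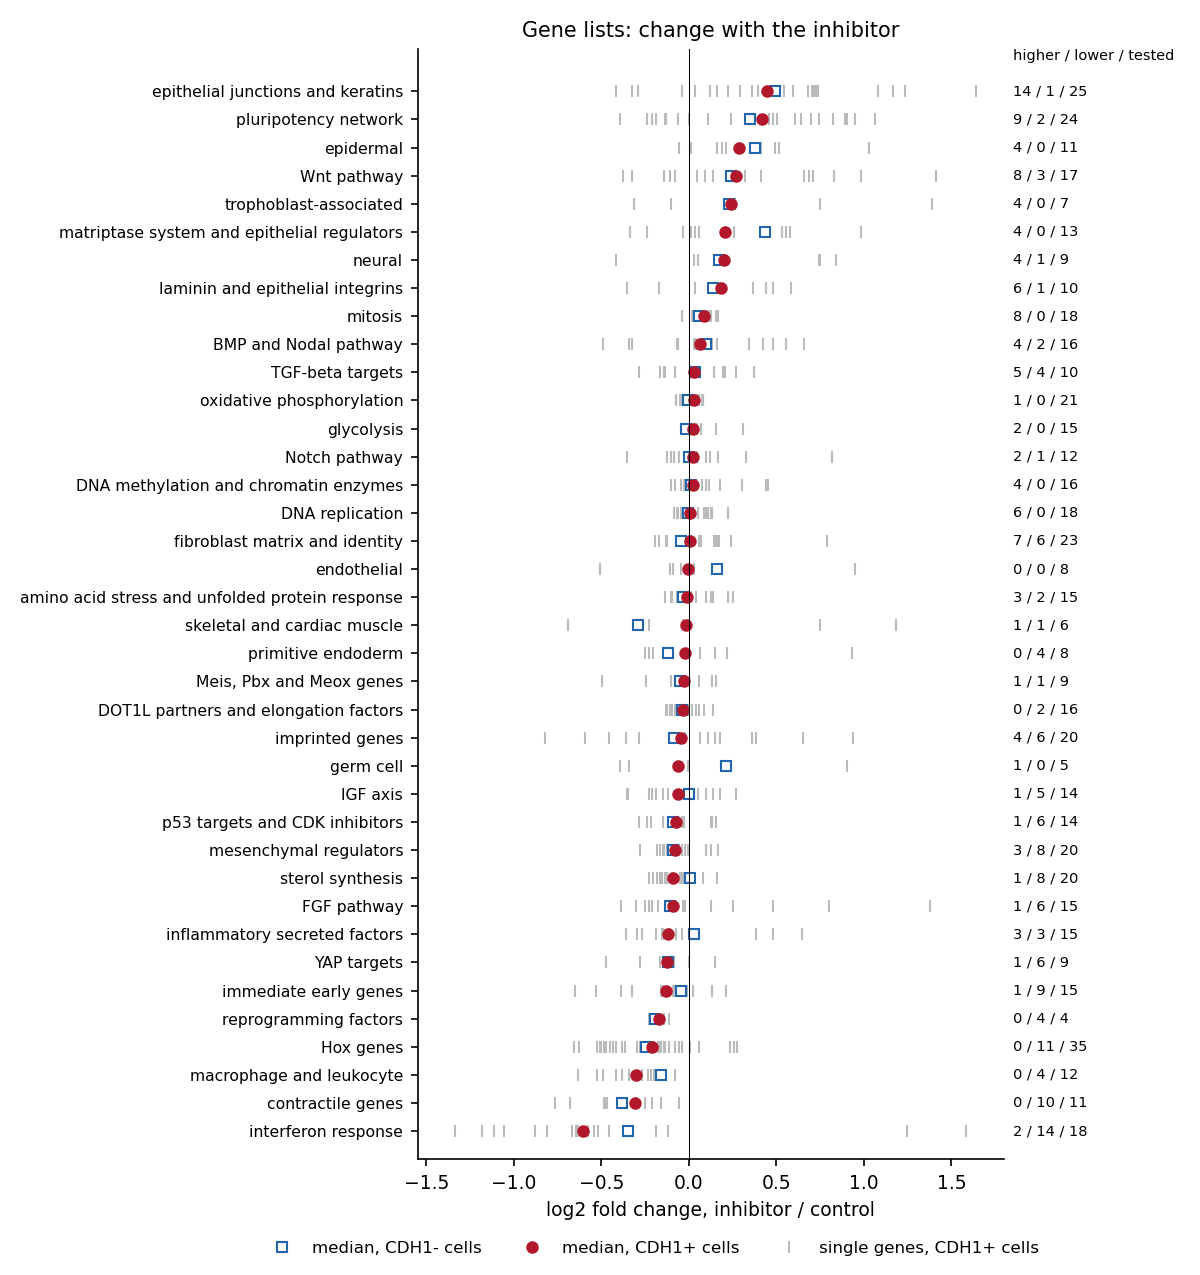
For each of the 38 gene lists, grey ticks are the log2 fold changes of its tested genes with the inhibitor in CDH1+ cells, the filled circle is their median, and the open square is the median in CDH1- cells; the numbers at the right count genes called higher, called lower and tested. Epithelial genes have the highest median (0.45) and interferon response genes the lowest (-0.60).

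The CDH1- cells of the same sort show how far these changes depended on the gate. The same test in CDH1- cells called 1092 genes higher (7.82%) and 1515 lower (10.8%) with the inhibitor, and on the deposited TPM values 1084 higher and 720 lower. The effects in the 2 gates rest on separate libraries. Genes higher in both numbered 640, which is 55% of those higher in CDH1+ cells and 58.6% of those higher in CDH1- cells. Genes lower in both numbered 959, which is 65.3% and 63.3%. Of the genes that rose in CDH1+ cells 97% had an estimate above 0 in CDH1- cells, against 49.5% of all genes, and of those that fell 96.7% had one below 0, against 50.4% of all genes. All 12 of the largest increases in CDH1+ cells were also called higher in CDH1- cells, and 8 of the 12 largest decreases were called lower there. Cldn3 rose by 1.57 and Dsg2 by 1.57 in CDH1- cells, Cnn1 fell by 0.83, and Peg10 rose by 0.94. Among the 24 tested pluripotency genes 9 were called higher and 4 lower in CDH1- cells, with a median of 0.35. Tdh rose by 1.01 and Tcfcp2l1 by 0.85 there. Nanog, which rose by 0.89 in CDH1+ cells, had an uncalled 0.32 in CDH1- cells (adjusted p = 0.286), and the difference of 0.57 ± 0.25 was not called either (adjusted p = 0.686).

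The test of the difference between the gates called 26 of the 13968 genes (0.186%). In 19 of them (0.136%) the change in CDH1+ cells was below that in CDH1- cells, and in 7 (0.0501%) above it. Cdh1 was among the former: it rose from 7.27 and 7.24 CPM to 20.9 and 20.9 CPM in CDH1- cells, a change of 1.53 ± 0.07, and the effect in CDH1+ cells was lower by 0.93 ± 0.09 on the log2 scale (adjusted p = 1.44e-14). With the inhibitor, CDH1- libraries stayed below every CDH1+ library. Krt8 likewise rose more in CDH1- cells, by 0.49 ± 0.05 against 0.22 ± 0.04. For Bst2 the CDH1- libraries stood at 51.2 and 54.1 CPM without and at 53.3 and 54.3 CPM with the inhibitor. Its change of 0.03 ± 0.04 there was not called (adjusted p = 0.67), and the difference between the gates was -0.68 ± 0.06 (adjusted p = 6.02e-17).

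Several other interferon genes differed between the gates in size rather than direction. Isg15 went from 36.9 and 37.9 CPM to 20.6 and 20.8 CPM in CDH1- cells (-0.85 ± 0.05), and the difference was -0.48 ± 0.07 (adjusted p = 3.1e-06). Ifi44 fell by 0.56 ± 0.07 in CDH1- cells, with a difference of -0.62 ± 0.09 (adjusted p = 2.43e-06). Of the 18 genes of the interferon list 5 were called in the test of the difference, among them Isg15, Ifi44, Bst2 and Xaf1, all 5 toward a larger fall in CDH1+ cells. Lgals3bp, a secreted glycoprotein that interferon induces, fell by 0.55 ± 0.04 in CDH1+ and by 0.14 ± 0.04 in CDH1- cells. In the controls Isg15, Ifi44 and Bst2 were higher in CDH1+ than in CDH1- cells by 0.86, 1.04 and 0.74. All 19 genes with a difference below 0, in the interferon list or not, were called higher in the CDH1+ controls, against 12.8% of all genes tested. This comparison shares the control libraries with the inhibitor effect. Error in those libraries moves both values so as to favour this pattern, and the count is therefore no separate evidence. Mpeg1, the macrophage gene, was at 0.601 and 0.584 CPM in the CDH1- controls and 1.04 and 0.652 CPM with the inhibitor, and its difference was -1.43 ± 0.31 (adjusted p = 0.0109). Of the 12 genes on the macrophage list, 0 were called in the test of the difference.

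Egr2 fell in CDH1+ cells and had an uncalled -0.11 ± 0.08 in CDH1- cells, with a difference of -0.54 ± 0.12 (adjusted p = 0.0109). The chemokine gene Ccl2 rose in both gates, by 0.39 ± 0.04 in CDH1+ and 0.71 ± 0.04 in CDH1- cells, while Ccl7 fell by 0.16 ± 0.04 in CDH1+ and rose by 0.19 ± 0.04 in CDH1- cells. Among the genes with a difference above 0, Crabp1, a cytosolic retinoic acid binding protein, was at 22 and 23.7 CPM in the CDH1+ controls and at 24.8 and 25.3 CPM with the inhibitor, which was not called (adjusted p = 0.0831). In CDH1- cells it went from 76 and 79 CPM to 61.7 and 58.1 CPM (-0.37 ± 0.04), and the difference was 0.50 ± 0.07 (adjusted p = 2.65e-07). Vcan, a matrix proteoglycan, Hspg2, the basement membrane proteoglycan perlecan, Lrp1, an endocytic receptor, Pkd1, a membrane protein of the primary cilium, and Mll1, a histone H3 lysine 4 methyltransferase, had differences between 0.14 and 0.20. DESeq2 called 11 genes in this test and limma on log2(TPM + 1) 8. Only Cdh1, Bst2, Ifi44, Isg15, Ccl2, Ccl7 and Crabp1, 7 of the 26, were called under all 13 alternatives.

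**Figure D5:**
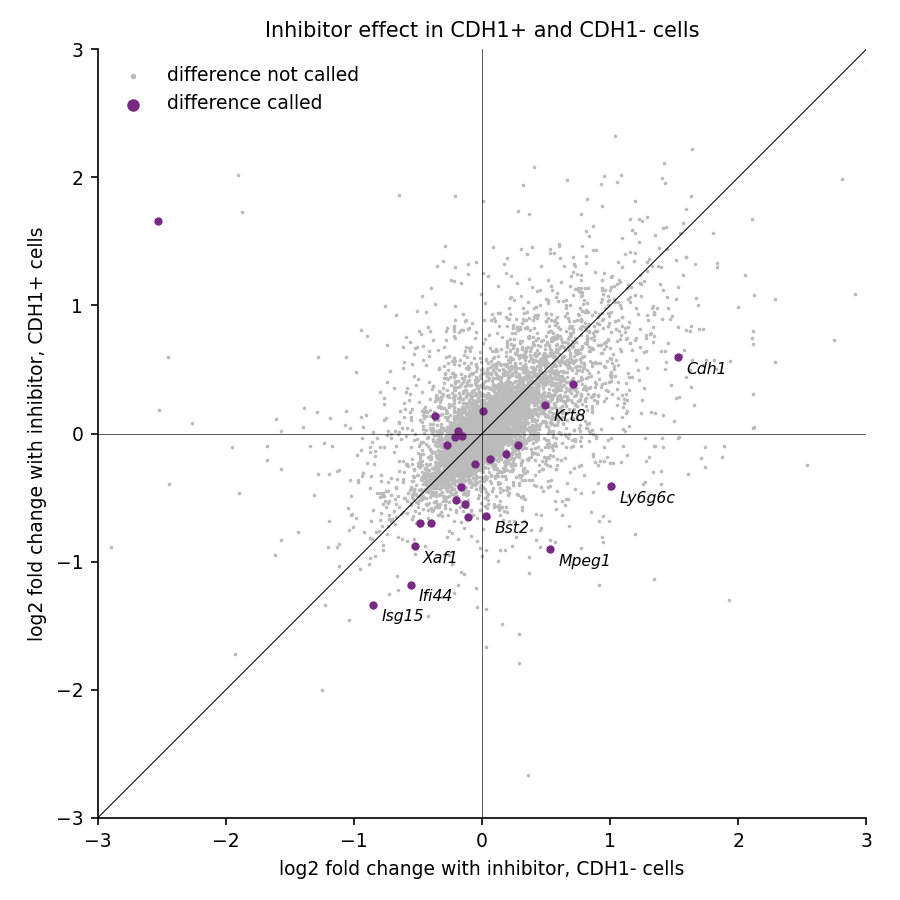
Each point is a gene, with its log2 fold change with the inhibitor in CDH1- cells across and in CDH1+ cells upward; purple marks the 26 genes called in the test of the difference, the diagonal is an equal effect in both gates, and 17 genes, none of them called for a difference, lie outside the axes. Cdh1 lies to the right of the diagonal (1.53 and 0.59), and Isg15, Ifi44 and Bst2 lie below it.

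Unsorted cells given the inhibitor from day 2 to day 4 of doxycycline, in a separate experiment, offer values for the same genes in a culture that was not split by CDH1. That comparison called 14% of 14473 genes higher and 13.5% lower, together 27.4%. Of genes tested in both experiments, 544 rose in both, which is 47.2% of those higher in CDH1+ cells and 28.2% of those higher in unsorted cells, and 697 fell in both, which is 47.5% and 35.9%. A further 41 that rose in CDH1+ cells fell in unsorted cells, and 118 that fell in CDH1+ cells rose there. Of the 12 largest increases 11 were tested in unsorted cells and all 11 were called higher, with Cldn3 at 1.58 and Dsg2 at 2.03. Epithelial genes rose there too, 15 of 20 tested with 1 lower, and 18 of 35 Hox genes fell. The interferon list differed: 5 of its 18 genes were higher and 1 lower in unsorted cells, with a median of 0.26. Isg15 stood at 2.22 and 2.33 CPM in the unsorted controls and at 2.31 and 3.28 CPM with the inhibitor, which was not called (0.30 ± 0.15, adjusted p = 0.134). Bst2 went from 114 and 116 CPM to 130 and 138 CPM there, a rise of 0.22 ± 0.04. Of the 12 largest decreases only Mpeg1 was lower in unsorted cells, and Apol9a and Apol9b were higher. For the contractile list 4 of 11 fell and 1 rose, and Cnn1 had an uncalled -0.22 (adjusted p = 0.468). The sort, the days of treatment and the experiment differ together between these libraries and cannot be told apart, and the difference between the effects was not tested.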

How the data were processed

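Polyadenylated RNA was sequenced, per the labels' protocols from 1 ug of RNA per library with 20 ng of human 293T RNA added to the sorted libraries. Trimmomatic, Bowtie, RSEM 1.2.4 and the builds mm9 and hg18 are named in the submitters' processing notes, without their order. The deposited tables give 1 expected count per gene, estimated by RSEM and not normalized, and a TPM, which RSEM scaled for gene length to a fixed sum within each library, per the file headers. No human gene was found in the files, so every change is measured against the rest of its library, and a change common to all genes would not be seen.

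Expected counts were rounded and fitted over all 8 sorted libraries with 1 coefficient per group in edgeR 4.0.16 (R 4.3.3, TMM, filterByExpr with minimum count 10 and minimum total 15, robust quasi-likelihood test with 4 residual degrees of freedom). Differences between gates were contrasts of the same fit, and p-values were Benjamini-Hochberg adjusted over all genes tested, with a threshold of 0.05. Alternatives were DESeq2 1.42.0, RLE size factors, no filter, replicate number as a block, only the groups compared, each library left out, and limma 3.58.1 on log2(TPM + 1). On simulated counts for the CDH1+ comparison, edgeR recovered 36 of 50 genes changed 1.2-fold, 39 of 50 changed 1.5-fold and all 50 changed 2-fold, with 10 false calls. The changed genes were drawn only from those with a mean count above 50, so recovery at lower counts was not tested. Changes below 1.2-fold were not simulated, although most of the genes called lower changed by less than that. The simulated spread was that of these libraries, which may be technical. Most of the genes that rose at least 2-fold, 107 of 129, stood below 1 CPM in the controls. Between replicates, the chi-square of the counts per degree of freedom lay between 1.85 and 3, so counting error was a sizeable part of their spread, and beyond it replicates varied with a coefficient of variation of 2.3%.

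Named genes were the 12 largest increases and decreases among called genes whose groups did not overlap and whose mean log2 CPM was 1 or more, up to 3 called members with the smallest p per list, 6 genes each way for the difference, and Dot1l, Cdh1, the factors and Nanog. Further list members and genes of the difference were named after their values were seen. The members and the 38 lists (553 genes tested) were chosen with earlier results of these data known. Promoter windows were from RefSeq (GRCm38.p6), matched by symbol for 9898 genes tested; where a gene had several windows, a match in any counted. Motifs were chosen with the results known. Gene coordinates of the files' own build were not used here. Results for 2 named list members are not reported here, and the counts over lists include them.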

Additional observations from a re-analysis of the deposited data

Results flagged for a closer look

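The test of the difference between the inhibitor effects in CDH1+ and CDH1- cells set 26 genes apart. Each value is the log2 change in CDH1+ cells minus that in CDH1- cells. Among the genes of the interferon response or known to be induced by interferon it was, for those named here, -0.68 for Bst2, -0.62 for Ifi44, -0.48 for Isg15, -0.41 for Lgals3bp, -0.36 for Xaf1, -0.29 for Irgm1, -0.22 for Gvin1 and -0.18 for B2m. For the macrophage gene Mpeg1 it was -1.43. For the epithelial genes Cdh1 and Krt8 it was -0.93 and -0.27, for the chemokine genes Ccl7 and Ccl2 it was -0.34 and -0.32, and for Egr2 it was -0.54. The remaining genes with a smaller value in CDH1+ cells were Ly6g6c at -1.42, Rnaset2a at -0.37, Ugcg at -0.26 and Ptprj at -0.25. Rnaset2a has a near-identical copy, so its counts are uncertain.

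A larger value in CDH1+ cells was found for Crabp1 at 0.50, Mll1 at 0.20, Pkd1 and Hspg2 at 0.18 each, Vcan at 0.17 and Lrp1 at 0.14. Tppp had the largest difference, 4.19, but its 8 values lay between 0.0237 and 0.443 CPM.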

How the results depend on the processing

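DESeq2 called fewer genes: 1460 for the inhibitor in CDH1+ cells, of which 1458 were also called by edgeR in the same direction, 1403 in CDH1- cells, 11 for the difference between the gates and 2243 between the controls of the gates. On log2(TPM + 1) limma called 8 genes for the difference. With 1 library left out, the count was between 1674 and 1883 in CDH1+ cells (2631 with all, and 1674 without CDH1+ control replicate 1), between 1893 and 2136 in CDH1- cells, between 18 and 35 for the difference, between 2528 and 2999 between the controls, between 2647 and 3159 for the unsorted cells and between 12991 and 13054 for ESCs against MEFs. These fits have fewer samples, and the lone library of a group is assumed to vary like the other groups. RLE size factors and no filter kept every count of these comparisons within 1.5 times, as did fitting only the groups compared, which was not run for the difference. Replicate numbers did not pair the libraries: between groups, the correlation of the differences between replicates lay between -0.042 and 0.083. With the replicate block 2489 genes were called in CDH1+ cells, 2452 in CDH1- cells and 26 for the difference.

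Of 134 named genes 107 kept the same status, called or not, under all 10 alternatives. A call was lost under 1 or more by 26, and 0 called genes changed sign. Crabp1, not called in CDH1+ cells, gained a call on log2(TPM + 1). The estimates of Lrp1 and Mll1 in CDH1+ cells, which were not called, lay on both sides of 0. The median of 7 of the 38 lists changed sign under an alternative, and these were lists with a median near 0. For Hox genes between 5 and 11 were called lower, for the interferon list between 12 and 15, for contractile genes between 10 and 11 and for macrophage markers between 1 and 4. For epithelial genes between 11 and 15 were called higher, and for the pluripotency network between 5 and 9. The causes of these changes were not tested. The depth limits genes with few counts: of the 129 genes that rose at least 2-fold, 107 stood below 1 CPM in the controls.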
